A study of Mus musculus with 48 samples.

Results

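The 10 genes described here make up the DLK-JNK axon injury kinase cascade and its nearest partners. They were chosen by name, with earlier results of these data known. They include the MAP3 kinases Map3k12 (DLK) and Map3k13 (LZK) and the MAP2 kinases Map2k4 (MKK4) and Map2k7 (MKK7). The JNKs are Mapk8 (JNK1), Mapk9 (JNK2) and Mapk10 (JNK3). The rest are the scaffolds Mapk8ip1 (JIP1) and Mapk8ip3 (JIP3) and the ubiquitin ligase Mycbp2 (PHR1). All 10 were found among the 47643 gene identifiers of the count files, and all 10 were among the 19048 genes that passed the filter on low counts. RNA was sequenced from nociceptors of the L4 dorsal root ganglion, sorted by the ZsGreen reporter, 3 days after the sciatic nerve was crushed with forceps. The study asked how nerve injury and loss of Tsc2, the brake on the growth kinase complex mTORC1, change the RNA of these neurons, alone and together. There were 4 groups of 4 replicates (2 male and 2 female each): crush Tsc2 cKO, crush control, uninjured Tsc2 cKO and uninjured control. Each replicate was the sum of 3 libraries of about 100 sorted cells.

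Every mouse carried Nav1.8-Cre and the Cre-dependent Rosa26-ZsGreen reporter, on a mixed C57BL/6 and AJ background, and was 8 to 9 weeks old. Tsc2 cKO mice were Tsc2 flox/null, so that Cre left no intact copy in the sorted cells, and the rest of the body had a single intact copy. Control mice were Tsc2 flox/+, so their sorted neurons had also lost 1 copy, and no group here had both copies. Nav1.8 (Scn10a) is a sodium channel gene used mainly by small-diameter sensory neurons, so the sort is aimed at nociceptors rather than at large-fibre neurons. Uninjured ganglia lay on the side opposite a crush and did not come from mice without an injury. The labels do not say whether samples with the same replicate number came from the same mouse.

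DLK is a kinase of axons that is activated when an axon is cut or crushed, or when its cytoskeleton is disturbed. It phosphorylates MKK4 and MKK7, which in turn phosphorylate the JNKs, and active JNK is carried back to the cell body, where c-Jun and its partners switch on genes of regeneration or of neuronal death. JIP1 and JIP3 hold the kinases together and tie them to motor proteins, and PHR1 marks DLK for degradation, so the cascade is set largely at the level of protein and phosphorylation. The values below are RNA levels and say nothing about either.

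The 3 JNK genes encode nearly the same kinase core, so the sequence that all of them share shows first how far 50-base reads can tell them apart. The stretch below is the coding sequence of the activation segment, read 5′ to 3′ on the gene's own strand, with the codons of the threonine-proline-tyrosine site that MKK4 and MKK7 phosphorylate in capitals.
Mapk10: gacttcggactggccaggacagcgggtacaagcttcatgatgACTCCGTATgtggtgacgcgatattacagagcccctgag
Mapk8: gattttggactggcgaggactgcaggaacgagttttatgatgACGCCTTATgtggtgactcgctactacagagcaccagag
Mapk9: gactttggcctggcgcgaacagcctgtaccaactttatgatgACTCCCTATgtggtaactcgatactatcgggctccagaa
In the mm10 assembly these lie at chr5:102989651-102989731 (minus strand, exon 7 of the 13 exons of the Mapk10 transcript read), chr14:33392973-33393053 (minus strand, exon 6 of 12 of Mapk8) and chr11:49872788-49872868 (plus strand, exon 6 of 12 of Mapk9). Over the 81 bases, Mapk10 and Mapk8 were identical at 65 positions (80.2%). Mapk9 matched each of the other two at 61 positions (75.3%). The longest run of identical bases between any annotated transcripts was 27 between Mapk10 and Mapk8 and 23 for each pair with Mapk9, all shorter than a read. Of the 50-base words in the transcripts, none of Mapk10 and none of Mapk9 occurred in another gene's transcripts, and 0.11% of those of Mapk8 did. A read of full length can thus be assigned to 1 of the JNK genes almost everywhere along them.

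Mapk10, the neuronal JNK, had the largest differences with Tsc2 deletion of any member and the widest spread of group means (2.80 times). With crush in control neurons the estimates of Mapk8ip1, Map3k13 and Map2k4 were larger than that of Mapk10. Mapk10 fell with crush and with Tsc2 deletion, by 28.2% with crush in control neurons and by 51.9% with deletion in uninjured neurons. Mapk8 and Mapk9 passed the threshold in no comparison. With crush in control neurons 3 of the 10 members passed an adjusted p of 0.05, where 19.7% of all genes tested did: Mapk8ip1 rose, and Map2k4 and Mapk10 fell. With crush in Tsc2 cKO neurons 1 of 10 passed, Mapk10, which fell, against 5.43% of all genes (2.86% lower). With deletion in uninjured neurons 3 of 10 passed, against 20.7% of all genes: Map2k7 rose, and Map2k4 and Mapk10 fell. With deletion after crush 2 of 10 passed, Mapk10 and Mycbp2, both lower, against 6.59% of all genes (3.21% lower). These shares are of 10 genes, so a single gene moves them by 10 percentage points. No member passed in the interaction, the test of whether crush changed a gene differently in Tsc2 cKO and control neurons, where 1.76% of genes did. In that comparison Map2k4 alone had an unadjusted p under 0.05 (0.0401), and DESeq2 and limma-voom also called 0 members. DLK itself, Map3k12, passed in no comparison.

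**Figure D1:**
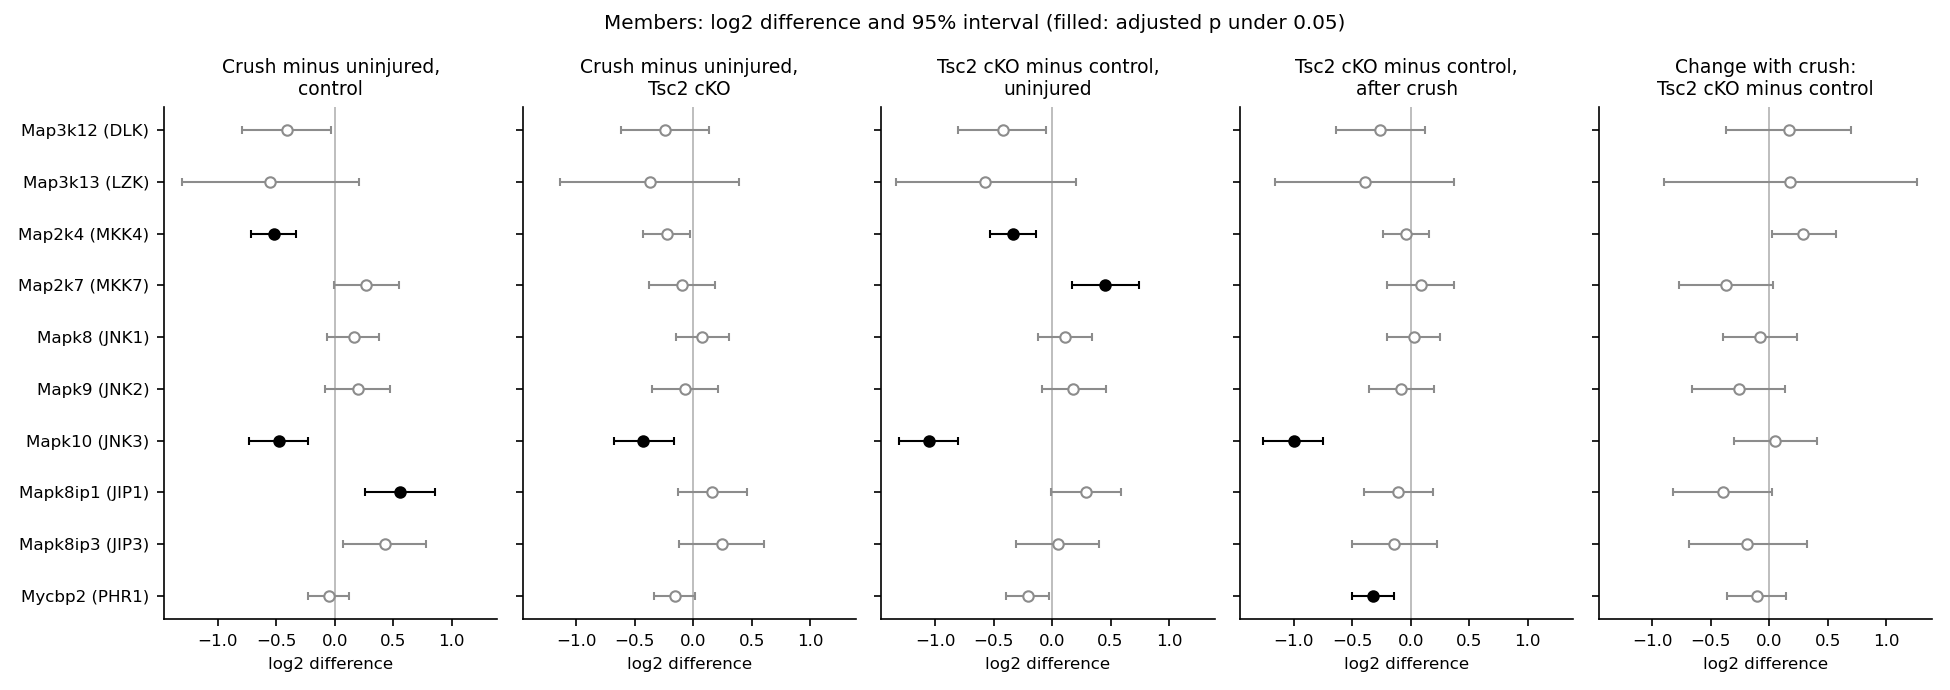
Log2 difference of each member (points) with its 95% interval (bars) in the 4 comparisons and the interaction, from the edgeR fit over all 16 samples, filled where the adjusted p was under 0.05. Mapk10 lies left of 0 in the first 4 panels, near -1 in both deletion panels, and at 0.05 in the interaction.

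The median log2 difference of the 10 members was 0.05 with crush in control neurons, -0.13 with crush in Tsc2 cKO neurons, -0.08 with deletion in uninjured neurons and -0.12 with deletion after crush. The corresponding medians of all genes tested were -0.03, 0.00, 0.02 and 0.00. Counts without overlap between the groups' replicates ran close to those of the test. Replicates of the groups did not overlap for 4 members with crush in control neurons (21% of all genes), for 2 with crush in Tsc2 cKO neurons (14.5%), for 4 with deletion in uninjured neurons (25.4%) and for 2 with deletion after crush (13.2%). The crush and deletion comparisons share samples, so their results are not separate observations. In bulk samples such as these, fewer neurons with a transcript and less of it in each neuron cannot be told apart.

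Levels of the members spanned more than an order of magnitude. Read counts scaled to library size (CPM, with TMM factors) were divided by the exon length of each gene in kilobases to compare genes. That length includes stretches shared with other genes, 35.2% of it for Map2k7, 20.4% for Mapk8ip3 and 19.3% for Map3k12. How reads there were counted was not tested, so the places of these genes are less certain. In uninjured control neurons Mapk10 was highest at 29.9 ± 2.5 CPM per kb (SD, n = 4), followed by Map2k4 at 25 ± 1.49, without overlap of their replicates. Mapk9, Mycbp2 and Mapk8ip3 came next at 12.3 ± 1.99, 11.8 ± 0.745 and 10.7 ± 1.39 CPM per kb, and their ranges overlapped. Mapk8ip1 (6.22 ± 0.703), Map2k7 (6.09 ± 0.93) and Mapk8 (4.43 ± 0.466) followed, with overlapping ranges between neighbours except between Map2k7 and Mapk8. The MAP3 kinases at the head of the cascade were lowest, Map3k12 at 1.46 ± 0.18 and Map3k13 at 0.784 ± 0.30 CPM per kb. In crush Tsc2 cKO neurons Mapk10 stood at 10.7 ± 1.85 CPM per kb, after Map2k4 (16.9 ± 0.761), Mapk9 (13.4 ± 2.39) and Mapk8ip3 (13.1 ± 3.28). The lowest level was that of Map3k13 in all 4 groups.

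**Figure D2:**
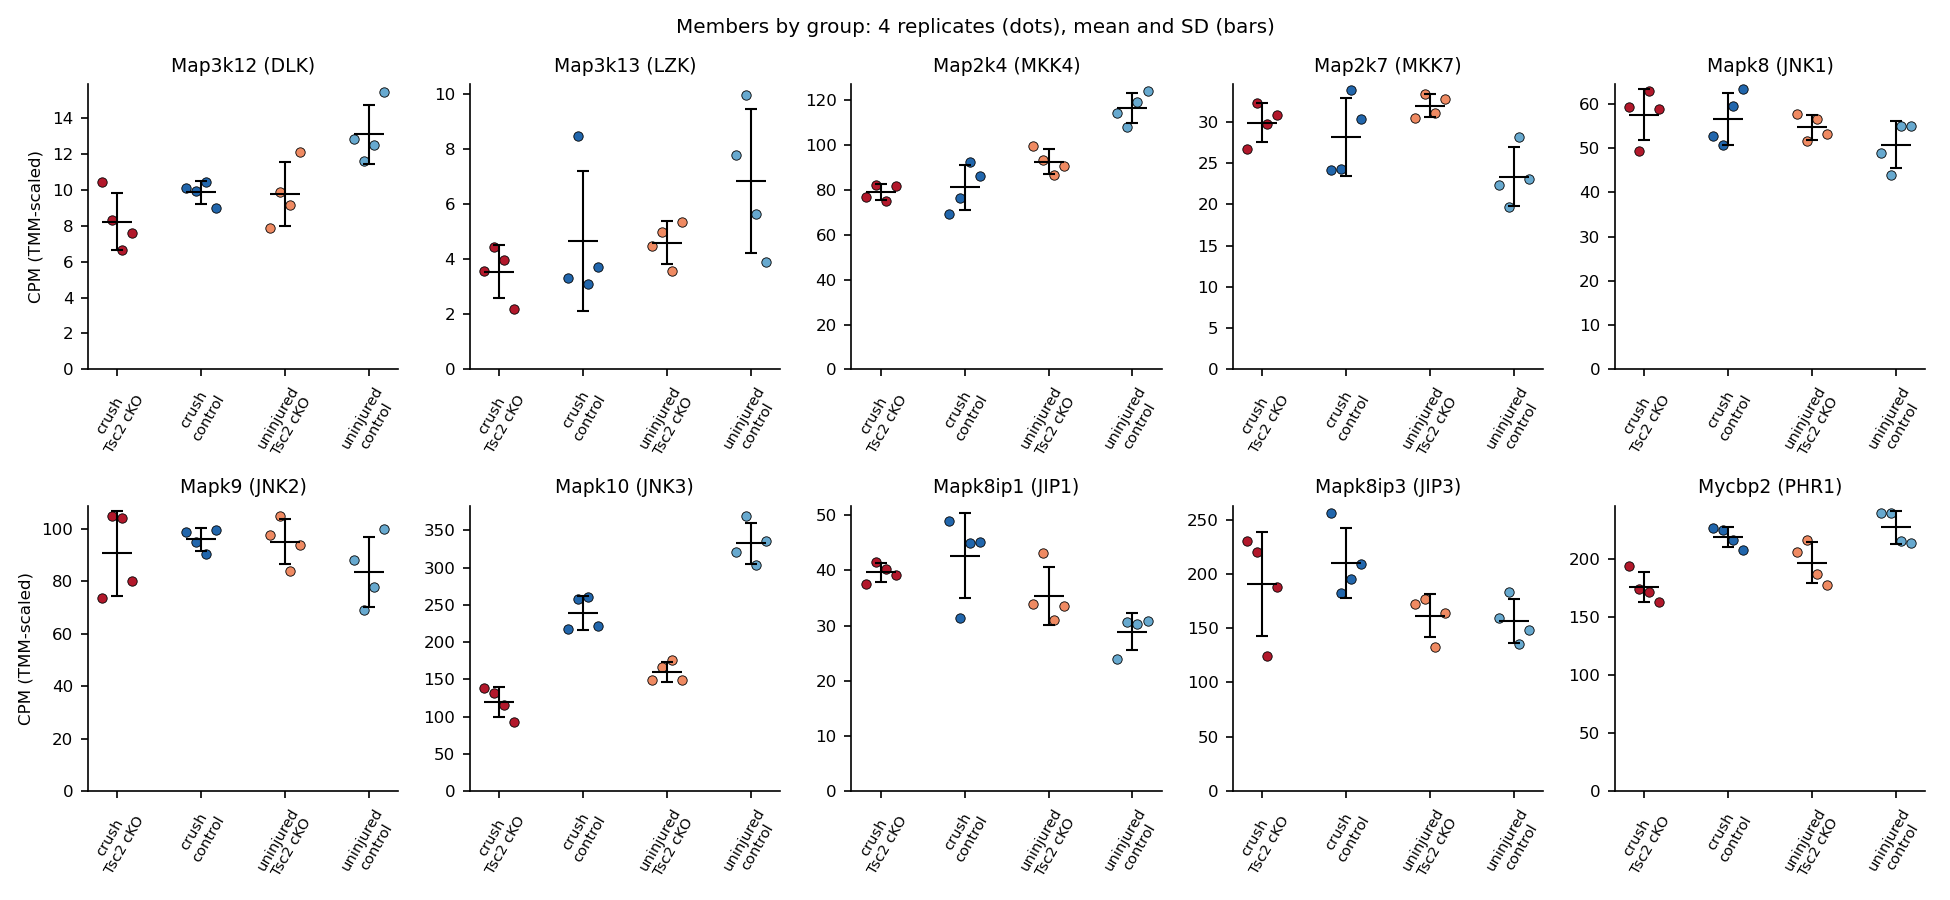
TMM-scaled CPM of each member (vertical axes from 0, different for each gene) in the 4 replicates of each group (dots), with the mean and SD (bars). Mapk10 runs from 92.3 CPM in a crush Tsc2 cKO replicate to 369 CPM in an uninjured control replicate, while Mapk8 and Mapk9 overlap across all 4 groups.

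The labels and the sort were checked first. Tsc2 RNA fell with deletion by 1.48 ± 0.23 log2 units (SE) after crush (adjusted p = 0.00106) and by 1.24 ± 0.23 in uninjured neurons (adjusted p = 0.00101). All 12 nociceptor markers were measured, none was at 0, and their summed level was 5540 to 6390 CPM in crush Tsc2 cKO, 8310 to 10200 in crush control, 6440 to 8590 in uninjured Tsc2 cKO and 10800 to 18500 in uninjured control replicates. Calca, the gene of the neuropeptide CGRP, made up 29.1 to 50.9% of that sum in crush Tsc2 cKO, 52.6 to 67.7% in crush control, 29.1 to 39.2% in uninjured Tsc2 cKO and 56.1 to 79.7% in uninjured control replicates. Without it the other 11 markers summed to 3050 to 3930, 2960 to 3940, 4510 to 5220 and 3600 to 4730 CPM in the same order of groups. Single markers passed in both directions with deletion in uninjured neurons, with Calca at -2 ± 0.29 and Prph at 0.71 ± 0.15 (adjusted p = 1.53e-04 and 0.00312). The 9 large-fibre neuron markers, none at 0, summed to 624 to 821, 672 to 945, 877 to 1100 and 1250 to 1760 CPM in the same order of groups. RNA of glial cells was present in every group. The 9 satellite glia markers summed to 836 to 1360 CPM in crush Tsc2 cKO, 636 to 1080 in crush control, 598 to 810 in uninjured Tsc2 cKO and 560 to 879 in uninjured control replicates. The 8 Schwann cell markers summed to 1690 to 1970, 2170 to 2430 (Mag at 0), 1510 to 1950 and 2320 to 2650 CPM in the same groups. Macrophage markers summed to at most 77.1 CPM in any replicate. Markers of vascular cells and fibroblasts summed to 116 to 412 CPM in crush Tsc2 cKO, 45.2 to 99.3 in crush control, 145 to 259 in uninjured Tsc2 cKO and 79.7 to 247 in uninjured control replicates. Neutrophil and lymphocyte markers summed to 13.3 to 26.9, 4.87 to 6.84, 5.37 to 7.83 and 0.109 to 1.04 CPM in the same order. The 48 libraries held 5159353 to 34228180 counts in genes (median 16885996), and the 16 sums 36773198 to 63365268.

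Map3k12 encodes DLK, the kinase that starts the response to axon injury, and lies at chr15:102497646-102517064 (mm10, minus strand). It had 10.1, 9.92, 10.4 and 8.96 CPM in crush control neurons, against 12.8, 11.6, 12.5 and 15.4 CPM in uninjured control neurons. Every crush control replicate was lower than every uninjured control replicate. The log2 difference was -0.41 ± 0.18 with a 95% interval of -0.79 to -0.03, and it did not pass over all genes (adjusted p = 0.122). An exact two-sided permutation test of the 4 against 4 replicates gave p = 0.0286, the smallest it can give, unadjusted. That value follows from the lack of overlap, which 21% of all genes tested had in this comparison, and adds nothing to it. In crush Tsc2 cKO neurons Map3k12 had 10.4, 8.29, 6.62 and 7.58 CPM, against 7.84, 9.88, 9.15 and 12.1 CPM in uninjured Tsc2 cKO neurons. Here the groups overlapped, and the log2 difference was -0.24 ± 0.18 (adjusted p = 0.567). With deletion the differences were -0.42 ± 0.18 in uninjured neurons (adjusted p = 0.107) and -0.26 ± 0.18 after crush (adjusted p = 0.470), again with overlap. All of these point down, none passed, and their intervals leave room for a rise of at most 0.13 log2 units and a fall of up to 0.80.

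DLK RNA was measured on 268 to 766 counts per replicate, and part of that count is not certain to be its own. The gene overlaps Pcbp2 and Gm10337 on the other strand over 19.3% of its exon length. Of its 50-base words, 18.7% also occurred in transcripts of other genes. The strand setting of the counting is not given in the sources used here.

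Map3k13 encodes LZK, the closest relative of DLK, which can act beside it in injured neurons (chr16:21794346-21933439, plus strand). It had 3.34, 8.48, 3.12 and 3.74 CPM in crush control neurons, against 7.79, 9.96, 5.66 and 3.92 CPM in uninjured control neurons. The second crush control replicate stood far above the other three, and the groups overlapped. The log2 difference was -0.55 ± 0.36 (adjusted p = 0.324). Without that replicate it was -0.99 (adjusted p = 0.0493), so 1 replicate decided whether Map3k13 passed. In Tsc2 cKO neurons Map3k13 had 3.58, 4.46, 3.97 and 2.20 CPM after crush, against 4.49, 5.01, 3.57 and 5.35 CPM without it. Those groups overlapped too, at -0.37 ± 0.36 (adjusted p = 0.704). Its counts of 82 to 522 per replicate were the lowest of the members, and aliquots of the same replicate differed with a median coefficient of variation of 39.5%. Of the summed per-length level of both MAP3 kinases, Map3k12 made up 69.2% ± 7.32 in crush Tsc2 cKO, 68.5% ± 10.6 in crush control, 67.1% ± 3.68 in uninjured Tsc2 cKO and 65.5% ± 11 in uninjured control neurons (SD, n = 4 each).

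Map2k4 encodes MKK4, which phosphorylates JNK and p38 kinases (chr11:65688243-65788297, minus strand). It had 69.3, 76.4, 92.2 and 86.0 CPM in crush control neurons, against 114, 108, 119 and 124 CPM in uninjured control neurons. No replicate of the crush group reached the lowest uninjured one. The fall was 0.52 log2 units (-0.52 ± 0.09, adjusted p = 8.79e-04). In Tsc2 cKO neurons it had 76.5, 82.1, 75.1 and 81.6 CPM after crush, against 99.6, 93.3, 86.7 and 90.3 CPM without crush. The groups again did not overlap, but the log2 difference of -0.23 ± 0.09 did not pass (adjusted p = 0.192). With deletion in uninjured neurons, the same uninjured values gave -0.33 ± 0.09 (adjusted p = 0.0181), without overlap. After crush the genotypes overlapped, at -0.04 ± 0.09 with an interval of -0.24 to 0.16 (adjusted p = 0.883). The 3 groups with an injury, a deletion or both therefore lay below uninjured control neurons, at 78.8 ± 3.55, 81.0 ± 10.1 and 92.5 ± 5.49 CPM in crush Tsc2 cKO, crush control and uninjured Tsc2 cKO neurons, against 116 ± 6.94 CPM. The difference of the crush effects between genotypes was 0.29 ± 0.13 (adjusted p = 0.343). The call with deletion was lost without uninjured Tsc2 cKO replicate 3 or 4 or uninjured control replicate 4 (adjusted p = 0.0506 to 0.0563) and with no filter on low counts (0.0531), at differences of -0.30 to -0.33.

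Map2k7 encodes MKK7, which phosphorylates JNKs only (chr8:4238740-4247897, plus strand). With deletion it had 30.5, 33.4, 31.1 and 32.8 CPM in uninjured Tsc2 cKO neurons, against 22.3, 19.7, 28.2 and 23.1 CPM in uninjured control neurons. The groups did not overlap, and Map2k7 rose by 0.45 ± 0.13 log2 units (adjusted p = 0.0241). The call was lost without uninjured Tsc2 cKO replicate 2 or 4 or uninjured control replicate 1, 2 or 4 (adjusted p = 0.0517 to 0.0815). After crush it had 26.7, 32.3, 29.7 and 30.8 CPM in Tsc2 cKO neurons, against 24.1, 24.3, 33.8 and 30.3 CPM in control neurons. These overlapped, at 0.09 ± 0.13 (adjusted p = 0.798). With crush in control neurons the log2 difference was 0.27 ± 0.13 (adjusted p = 0.179), and in Tsc2 cKO neurons -0.10 ± 0.13 (adjusted p = 0.816). The annotated gene Gm49320 overlaps 35.2% of the exon length of Map2k7, and 32.8% of its 50-base words occur in that gene. How reads of the shared stretch were counted was not tested.

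The relative levels of the MAP2 kinases set uninjured control neurons apart. Of their summed CPM per kb, Map2k4 made up 67.5 to 70.2% in crush Tsc2 cKO, 69.2 to 72.1% in crush control and 69.3 to 72.9% in uninjured Tsc2 cKO replicates, against 77.6 to 81.9% in uninjured control replicates. The uninjured control range lay apart from the other 3, which overlapped one another. The sum itself was 24.7 ± 1.28, 24.7 ± 3.38 and 28.2 ± 1.13 CPM per kb in those groups, against 31.1 ± 2.17 in uninjured control neurons. The size of each share depends on the exon length used, which for Map2k7 includes the stretch shared with Gm49320. These shares are a description of values whose genes were tested above, and no test was run on them.

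Mapk10 encodes JNK3, the JNK used mainly by neurons (chr5:102907948-103211334, minus strand). It had 217, 258, 260 and 221 CPM in crush control neurons, against 321, 369, 304 and 336 CPM in uninjured control neurons. The highest crush replicate was below the lowest uninjured one, and Mapk10 changed by -0.48 ± 0.12 log2 units (adjusted p = 0.00949). In Tsc2 cKO neurons it had 139, 131, 115 and 92.3 CPM after crush, against 149, 167, 176 and 149 CPM without crush. Those groups were also apart, at -0.43 ± 0.12 (adjusted p = 0.0471). That call sat at the threshold. It was lost in 7 of the 8 fits without 1 replicate, all but the fit without crush Tsc2 cKO replicate 1 (adjusted p = 0.0534 to 0.165), and with the mean of the glial markers as a covariate (-0.40, adjusted p = 0.183).

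The estimates for Mapk10 were larger with deletion than with crush, but the difference between them was not tested, and the same values give both comparisons. In uninjured neurons the log2 difference between Tsc2 cKO and control was -1.05 ± 0.12 (adjusted p = 1.49e-05), a level 0.481 times that of controls. After crush it was -1 ± 0.12 (adjusted p = 1.34e-04), a level 0.499 times that of controls. By p-value Mapk10 ranked 198 and 43 among the 19048 genes in these comparisons. The difference between the crush effects of the genotypes was 0.05 ± 0.17, with an interval of -0.30 to 0.41 (adjusted p = 0.946). Crush Tsc2 cKO neurons had 119 ± 20.6 CPM, against 333 ± 27.8 CPM in uninjured control neurons (SD, n = 4 each). Both deletion calls held in all 16 alternatives run for each, with adjusted p up to 1.27e-04 in uninjured neurons and 0.00285 after crush. The order of the groups in Mapk10 was that of the 12 summed nociceptor markers given above, a sum led by Calca. Without Calca the order was another one, with uninjured Tsc2 cKO neurons highest. The part of the neuron markers in this result was not tested, and with the glial markers as a covariate the deletion calls held.

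Mapk8 and Mapk9 encode JNK1 and JNK2, which most tissues use (chr14:33377898-33447158, minus strand, and chr11:49846751-49886421, plus strand). Mapk8 had 59.3, 49.3, 62.9 and 58.7 CPM in crush Tsc2 cKO and 52.8, 50.7, 59.4 and 63.3 CPM in crush control neurons. It had 57.6, 51.5, 56.5 and 53.1 CPM in uninjured Tsc2 cKO, against 48.9, 44.0, 55.0 and 54.9 CPM in uninjured control neurons. All groups overlapped, and the 4 log2 differences lay between 0.03 and 0.16 with SEs of 0.11 (adjusted p = 0.344 to 0.941). Mapk9 had 73.8, 105, 104 and 80.0 CPM in crush Tsc2 cKO and 99.0, 95, 90.3 and 99.5 CPM in crush control neurons. It had 97.6, 105, 84.1 and 93.9 CPM in uninjured Tsc2 cKO, against 88.0, 69.0, 77.8 and 100 CPM in uninjured control neurons. Its differences lay between -0.08 and 0.20 with SEs of 0.13 (adjusted p = 0.337 to 0.880). With deletion in uninjured neurons the 95% intervals were -0.12 to 0.34 for Mapk8 and -0.09 to 0.46 for Mapk9. A fall of the size seen for Mapk10 lies outside both.

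The JNK transcripts had a different make-up in each genotype. Of the summed CPM per kb of the 3 genes, Mapk10 made up 43.7, 37.3, 33.2 and 32.9% in crush Tsc2 cKO and 50.4, 55.7, 55.8 and 49.6% in crush control replicates. It made up 40.8, 42.9, 47.7 and 42.0% in uninjured Tsc2 cKO, against 62.6, 70.3, 62.7 and 60.7% in uninjured control replicates. The Tsc2 cKO groups, which overlapped each other, lay below both control groups, and the control groups lay apart. Mapk9 held the largest mean share in crush Tsc2 cKO neurons (45.8% ± 5.22, range 38.1 to 49.2%). In replicate 1 of that group Mapk10 held more, 43.7% against 38.1% for Mapk9. The Mapk9 share was 34.9% ± 2.68 in crush control and 26.4% ± 3.54 in uninjured control neurons. In uninjured Tsc2 cKO neurons it was 42.3% ± 3.24, with a range of 37.4 to 44.3% that overlapped crush Tsc2 cKO. The sum of the 3 genes was 29.1 ± 2.94 CPM per kb in crush Tsc2 cKO, 40.6 ± 1.44 in crush control, 33.2 ± 1.34 in uninjured Tsc2 cKO and 46.7 ± 2.57 in uninjured control neurons (SD, n = 4 each). As above, the shares were not tested.

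**Figure D3:**
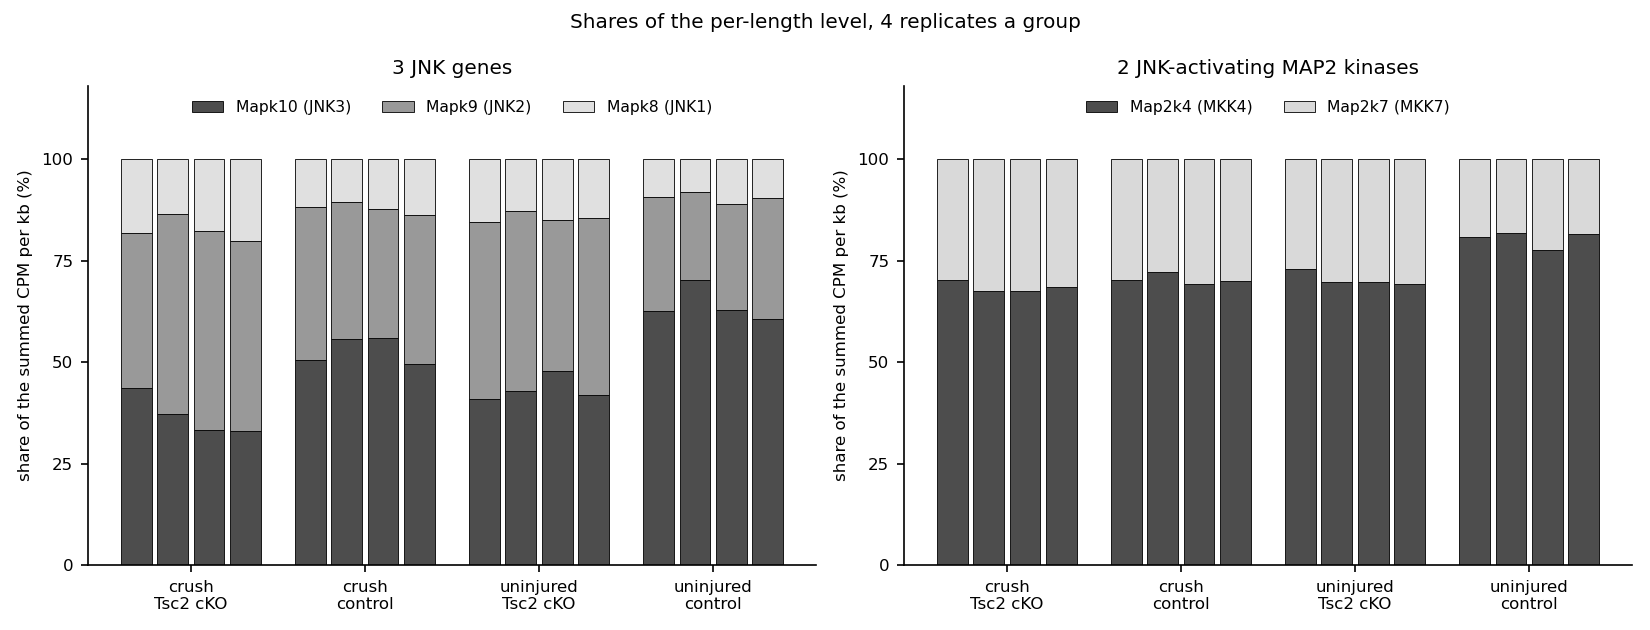
Share of each gene (stacked bars, percent) in the summed CPM per kb of the 3 JNK genes (left) and of the MAP2 kinases (right), 1 bar for each of the 4 replicates of a group. The Mapk10 share is 60.7 to 70.3% in uninjured control replicates and 32.9 to 43.7% in crush Tsc2 cKO replicates.

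Since Mapk10 was the member with the largest change, its promoter is printed, from 250 bases before to 50 after the upstream start that RefSeq gives (GRCm38.p6, chr5:103211285-103211584, minus strand, 5′ to 3′), with a match to the cAMP response element in capitals.
Mapk10 promoter: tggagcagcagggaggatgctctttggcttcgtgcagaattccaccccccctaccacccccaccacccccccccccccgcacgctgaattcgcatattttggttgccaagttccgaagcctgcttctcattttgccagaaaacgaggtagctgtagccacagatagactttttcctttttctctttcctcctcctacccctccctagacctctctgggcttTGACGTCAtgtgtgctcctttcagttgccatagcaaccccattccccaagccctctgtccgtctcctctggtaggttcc
Entries were given for 8 of the 10 members, 13 promoters in all. TGACGTCA, searched on both strands, was found for 1 member, Mapk10, and stood in 1.79% of 32851 promoters of the same length. TGANTCA, a loose form of the AP-1 letters with any base in the middle, stood in 7.81% of all promoters. It was found in a promoter of 1 member, Map2k7, as TGATTCA. Whether c-Jun dimers bind either match was not tested. These are matches of letters and not measured binding.

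Mapk8ip1 encodes JIP1, a scaffold that holds MKK7 and JNK on kinesin-1 (chr2:92383676-92401263, minus strand). It had 49.0, 31.4, 45.0 and 45.2 CPM in crush control neurons, against 24.0, 30.7, 30.2 and 30.8 CPM in uninjured control neurons. The groups did not overlap, though the second crush replicate lay just above the highest uninjured one. Mapk8ip1 rose by 0.56 ± 0.14 log2 units (adjusted p = 0.0102), the largest rise of a member in any comparison. In Tsc2 cKO neurons it had 37.6, 41.6, 40.3 and 39.1 CPM after crush, against 33.9, 43.1, 31.1 and 33.5 CPM without crush, with overlap and no call (0.16 ± 0.14, adjusted p = 0.649). With deletion in uninjured neurons the difference was 0.29 ± 0.14 (adjusted p = 0.163), without overlap, and after crush -0.11 ± 0.14 (adjusted p = 0.761). The difference between the crush effects was -0.40 ± 0.20, with an interval of -0.82 to 0.02 (adjusted p = 0.408), so crush is not shown to act differently in the 2 genotypes.

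Mapk8ip3 encodes JIP3, which links DLK and JNK to kinesin and dynein and takes part in the return of the injury signal (chr17:24892153-24936977, minus strand). It had 256, 182, 195 and 209 CPM in crush control neurons, against 159, 183, 135 and 148 CPM in uninjured control neurons. The groups overlapped narrowly, and the difference of 0.43 ± 0.17 did not pass (adjusted p = 0.0890). It passed in 3 of the 16 alternatives and not in the other 13 (adjusted p up to 0.255). Those 3 included sex as a covariate (0.43, adjusted p = 0.0376) and the fit of these 2 groups alone (0.45, adjusted p = 0.0469). In Tsc2 cKO neurons it had 230, 220, 124 and 188 CPM after crush, against 172, 177, 133 and 164 CPM without crush, a difference of 0.24 ± 0.17 (adjusted p = 0.541). With deletion the differences were 0.05 ± 0.17 in uninjured neurons and -0.14 ± 0.17 after crush (adjusted p = 0.894 and 0.729). The gene starts 304 kb from the start of Tsc2 on chromosome 17, close to the altered locus, and Eme2, Mrps34 and Nme3 overlap 20.4% of its exon length.

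Mycbp2 encodes PHR1, a very large ubiquitin ligase whose relatives in worm and fly hold DLK down (chr14:103113411-103346814, minus strand). With deletion after crush it had 194, 174, 172 and 163 CPM in Tsc2 cKO neurons, against 227, 225, 217 and 208 CPM in control neurons. The groups did not overlap, and Mycbp2 changed by -0.32 ± 0.08 log2 units (adjusted p = 0.0318), a fall of 19.8%. In uninjured neurons it had 206, 217, 187 and 178 CPM with deletion, against 240, 240, 216 and 214 CPM in controls. These overlapped, at -0.21 ± 0.08 (adjusted p = 0.0925). The difference passed in 2 of the 16 alternatives, among them sex as a covariate (adjusted p = 0.0327), and not in the other 14 (adjusted p up to 0.255). Crush moved it little, by -0.05 ± 0.08 in control neurons (interval -0.23 to 0.12, adjusted p = 0.721) and -0.16 ± 0.08 in Tsc2 cKO neurons (adjusted p = 0.341). The call after crush was lost without crush Tsc2 cKO replicate 2, 3 or 4 or crush control replicate 1, 2 or 3 (adjusted p = 0.0559 to 0.0919), with the glial covariate (0.122), with no filter on low counts (0.0684) and in the fit of the 2 groups alone (0.0841).

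Other kinases that feed the JNK cascade were moved by crush and by deletion. Of 17 further MAP3 and MAP4 kinases, all tested, 5 rose and 2 fell with crush in control neurons, with a median log2 difference of 0.00. With deletion in uninjured neurons 4 rose and 1 fell (median 0.27), with crush in Tsc2 cKO neurons 2 fell, and with deletion after crush none passed. Of all genes tested, 11% rose and 8.68% fell with crush in control neurons, 2.57% rose and 2.86% fell with crush in Tsc2 cKO neurons, 11.7% rose and 9.02% fell with deletion in uninjured neurons, and 3.38% rose and 3.21% fell with deletion after crush. The counts of each list are set beside these shares, and a list of 8 to 17 genes gives only a coarse share. Tnik, a MAP4 kinase that works upstream of JNK, had 113 ± 24.6 CPM in crush control neurons, against 25 ± 6.07 CPM in uninjured control neurons (2.17 ± 0.18, adjusted p = 5.30e-07). It also rose with deletion in uninjured neurons, to 92.9 ± 13.9 CPM (1.89 ± 0.18, adjusted p = 2.64e-06), and its crush effect was smaller in Tsc2 cKO neurons (-1.80 ± 0.25, adjusted p = 6.44e-04). Map4k4, which lies upstream of DLK and JNK in stressed sensory neurons, rose by 0.85 ± 0.13 with crush in control neurons (adjusted p = 2.32e-04) and by 0.60 ± 0.13 with deletion in uninjured neurons (adjusted p = 0.00332). Map3k20 (ZAK, a kinase of ribosome stress) rose by 1.05 ± 0.17 with crush and 1.11 ± 0.17 with deletion in the same comparisons (adjusted p = 4.17e-04 and 2.33e-04). Map3k1 fell by 0.93 and 0.96 log2 units there (-0.93 ± 0.27 and -0.96 ± 0.27, adjusted p = 0.0241 and 0.0195).

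Genes that act on DLK or on JNK passed in both directions. Of 12 DLK regulators and chaperones, 2 rose and 4 fell with crush in control neurons, 1 rose and 2 fell with crush in Tsc2 cKO neurons, 1 rose and 2 fell with deletion in uninjured neurons, and 3 fell with deletion after crush. In these comparisons 50%, 25%, 25% and 25% of the list passed, against 19.7%, 5.43%, 20.7% and 6.59% of all genes. Hsp90aa1, a chaperone that DLK needs, had 422 ± 26.7 CPM in crush control and 295 ± 23.8 CPM in uninjured control neurons (0.51 ± 0.08, adjusted p = 2.54e-04). Skp1a, which works with PHR1 and Fbxo45 in a ligase complex, had 1340 ± 205 CPM in crush Tsc2 cKO and 3260 ± 312 CPM in uninjured Tsc2 cKO neurons (-1.28 ± 0.15, adjusted p = 1.60e-04). Zdhhc17, a palmitoyltransferase that anchors DLK to axonal vesicles, fell with deletion in uninjured neurons (-0.60 ± 0.11, adjusted p = 0.00146) and after crush (-0.47 ± 0.11, adjusted p = 0.0188). Of 8 JNK phosphatases, Dusp1 rose with deletion in uninjured neurons, to 205 ± 16.1 CPM against 78.9 ± 29.7 CPM in controls (1.38 ± 0.21, adjusted p = 1.97e-04), and by 0.79 ± 0.20 after crush (adjusted p = 0.0291). Dusp10 fell with deletion in uninjured neurons (-0.84 ± 0.29, adjusted p = 0.0494) and Dusp22 fell with deletion after crush (-0.39 ± 0.11, adjusted p = 0.0485), so 2 of 8 passed in each deletion comparison (25%, against 20.7% and 6.59% of all genes). With crush 1 phosphatase passed in control neurons, Dusp2, at 1.21 ± 1.06 CPM in crush control and 0.00477 ± 0.00954 CPM in uninjured control neurons, and none passed in Tsc2 cKO neurons. Of 13 other scaffolds and transport genes, 2 rose and 2 fell with crush in control neurons (30.8%, against 19.7% of all genes), 2 fell with crush in Tsc2 cKO neurons (15.4%, against 5.43%), 2 rose with deletion in uninjured neurons (15.4%, against 20.7%) and none passed with deletion after crush. The 2 that rose with deletion were Klc1, at 0.62 ± 0.16 (adjusted p = 0.0116), and Sh3rf2. Sh3rf2 had hardly any counts, at 0.191 ± 0.0778 CPM in uninjured Tsc2 cKO and 0 CPM in uninjured control neurons. With crush in control neurons the list included Kif5c, a neuronal kinesin-1 heavy chain, at 0.61 ± 0.13 (adjusted p = 0.00312) and Spag9 (JIP4) at -0.48 ± 0.12 (adjusted p = 0.0113).

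Of the target lists, the injury outputs had medians far from 0 with crush in control and with deletion in uninjured neurons. The medians there were 0.08 and 0.17 for the transcription factors and -0.03 and -0.21 for the cytoskeletal proteins. Of 14 injury genes reported to need DLK in sensory or retinal neurons, 10 rose with crush in control neurons (median log2 difference 3.53), 7 with crush in Tsc2 cKO neurons (0.95), 10 with deletion in uninjured neurons (2.28) and 2 with deletion after crush (0.26), where 11%, 2.57%, 11.7% and 3.38% of all genes rose. The list was drawn up with the strong rise of several of these genes already known, so its direction is not independent evidence. Sprr1a, a protein of regenerating axons, had 1120 ± 359 CPM in crush control and 4.31 ± 0.80 CPM in uninjured control neurons (8.02 ± 0.28, adjusted p = 1.83e-11). Atf3, a transcription factor of injured neurons, had 1130 ± 132 CPM in crush control and 76.5 ± 23.6 CPM in uninjured control neurons (3.89 ± 0.22, adjusted p = 4.54e-09). For 7 of the 14 the crush effect was smaller in Tsc2 cKO neurons, where 1.54% of all genes tested had a lower one. Of 12 transcription factors that JNK phosphorylates, 3 rose and 1 fell with crush in control neurons (33.3%, against 19.7% of all genes), with a median of 0.08, and 2 rose with deletion in uninjured neurons (16.7%, against 20.7%), with a median of 0.17. None of the 12 passed with crush in Tsc2 cKO neurons or with deletion after crush, where 5.43% and 6.59% of all genes did. Jun, the main one, had 149 ± 17.8 CPM in crush control and 67.6 ± 26.2 CPM in uninjured control neurons (1.14 ± 0.21, adjusted p = 0.00106). In Tsc2 cKO neurons Jun had 162 ± 5.70 CPM after crush and 99.8 ± 8.10 CPM without it (0.70 ± 0.21, adjusted p = 0.0622).

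Of 11 cytoskeletal proteins that JNK phosphorylates, 3 rose and 2 fell with crush in control neurons, 1 rose and 2 fell with crush in Tsc2 cKO neurons, and 2 rose and 3 fell with deletion in uninjured neurons. In these comparisons 45.5%, 27.3% and 45.5% of the list passed, against 19.7%, 5.43% and 20.7% of all genes, and its medians were -0.03, 0.21 and -0.21. After crush 2 of the 11 fell with deletion (18.2%, against 6.59% of all genes), with a median of -0.27. Stmn4, a microtubule-destabilising stathmin, had 239 ± 49.2 CPM in crush control and 32.5 ± 15.5 CPM in uninjured control neurons (2.88 ± 0.27, adjusted p = 1.95e-06). Mapt, the microtubule protein tau, fell in all 4 comparisons, as Mapk10 did, by -0.45 ± 0.09 with crush in control neurons (adjusted p = 0.00317) and -0.82 ± 0.09 with deletion in uninjured neurons (adjusted p = 1.79e-05). In the p38 branch, which MKK4 can also feed, Mapk14 (p38 alpha) had 106 ± 13.7 CPM in crush control and 42.2 ± 4.36 CPM in uninjured control neurons (1.33 ± 0.12, adjusted p = 1.32e-06). Of the 8 genes of that branch 2 rose and 1 fell with crush in each genotype (37.5%, against 5.43% of all genes in Tsc2 cKO and 19.7% in control neurons). Of these 8, 1 rose and 1 fell with deletion in uninjured neurons (25%, against 20.7%). After crush 1 fell with deletion (12.5%, against 6.59%). Of 10 genes of the ERK branch 2 rose and 3 fell with crush in control neurons (50%, against 19.7% of all genes), with Mapk3 (ERK1) at -0.42 ± 0.08 (adjusted p = 0.00141). In the ERK branch 2 rose and 2 fell with deletion in uninjured neurons (40%, against 20.7%). Only Mapk3 fell with crush in Tsc2 cKO neurons (10%, against 5.43%), and none passed with deletion after crush.

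**Figure D4:**
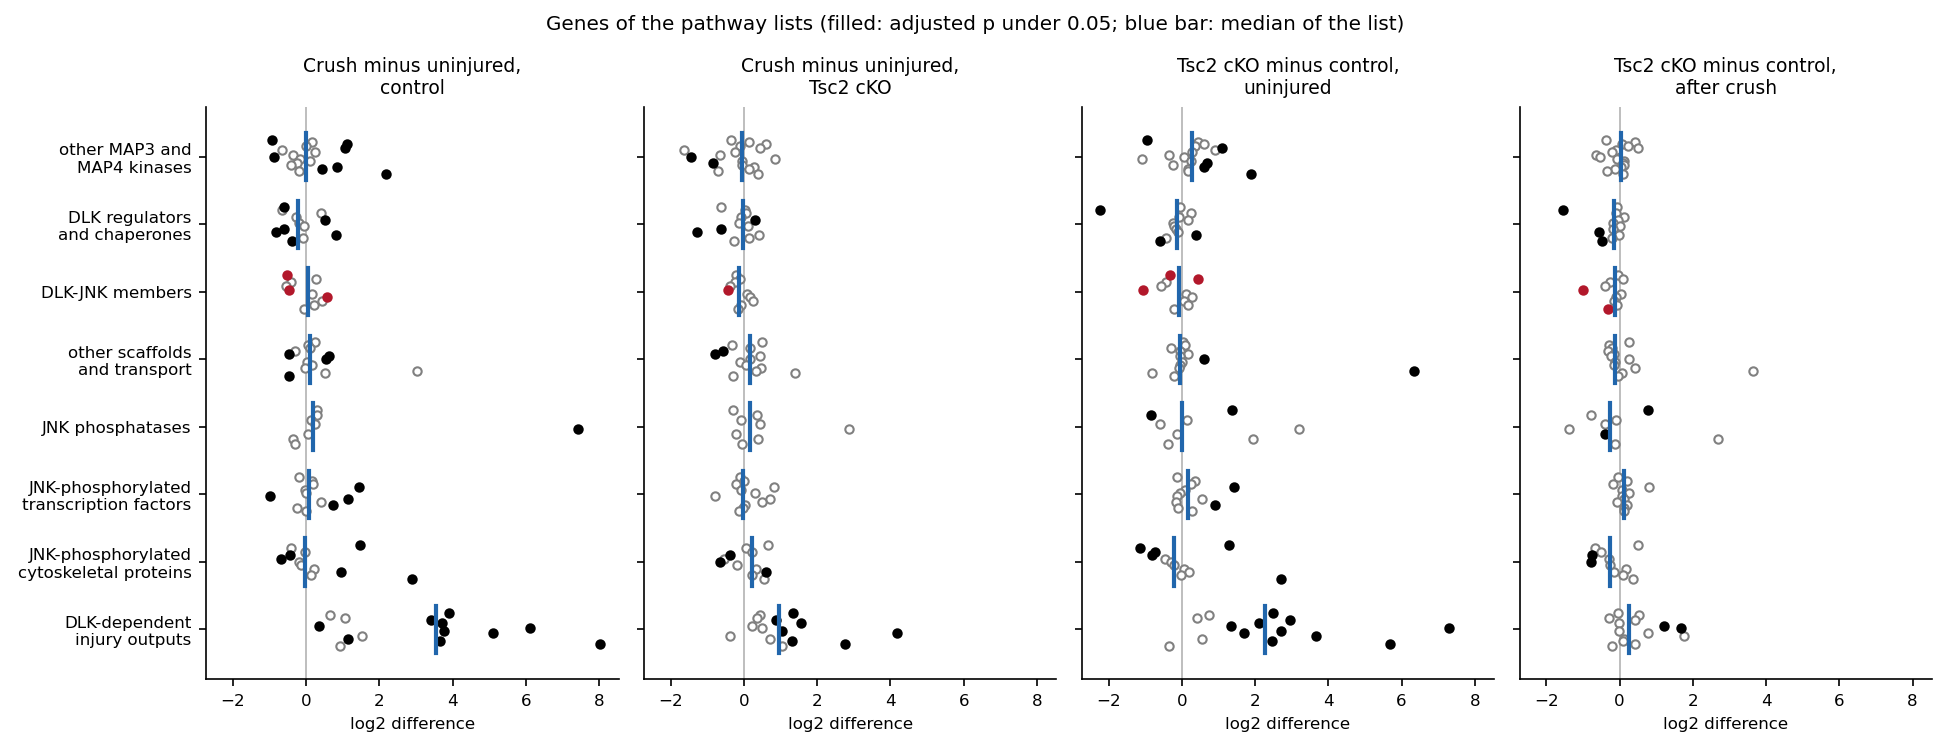
Log2 difference of each gene of the pathway lists (dots, 1 row a list) in 4 comparisons, filled where the adjusted p was under 0.05, with members in red and the list's median as a blue bar. The injury outputs have medians of 3.53 and 2.28 for crush in control and for deletion in uninjured neurons, while the medians of the members are 0.05 and -0.08. The dots furthest right among scaffolds and phosphatases are genes with hardly any counts in uninjured control neurons.

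Genes with the profile most like a member's were found by the cosine similarity of centred log2 CPM over the 16 replicates, among 8477 genes with a mean of at least 10 CPM. Since the replicates form 4 groups that differ in many genes, high values are common and carry no p. The nearest to Mapk10 were Pitpnc1 (0.978), Fgf1 (0.972) and Tmem25 (0.968). The nearest to Map3k12 were Ckmt1 (0.882), Pds5b (0.880) and Bcr (0.880). For Map2k4 they were 9330182L06Rik (0.954), Snx27 (0.952) and Xiap (0.947), for Map2k7 Rtl8b (0.897), Tbc1d13 (0.897) and Dynll2 (0.890), for Mapk8ip1 Chpf (0.933), H13 (0.914) and Rcan1 (0.911), and for Mycbp2 Atl1 (0.939), Sptbn1 (0.904) and Fstl1 (0.903). Among the members the closest were Mapk10 and Mycbp2 (0.877) and Mapk10 and Map3k12 (0.770), and the least alike were Map3k13 and Mapk8 (-0.743).

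The authors' deposited table lists 8600 genes with 7 of the 10 members, leaving out Map3k13, Mapk8 and Mapk9, and its header names no comparison group. In the authors' deposited table Mapk10 had log2 fold changes of -1.48 for crush Tsc2 cKO, -0.49 for crush control and -1.12 for uninjured Tsc2 cKO. Map3k12 had -0.65, -0.46 and -0.48 in the same columns of the authors' deposited table, with adjusted p of 0.00173, 0.0483 and 0.0312. Since the group these columns are set against is not named, the values stand as given and are not set against the comparisons above. Mapk8ip3 in the crush control column of the authors' deposited table had 0.42 with an adjusted p of 0.0125.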

How the data were processed

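The authors deposited whole-number read counts per gene for each of 48 libraries, unnormalized, made on mm10 with STAR and HTSeq after FastQC, per the submitters' processing notes. Their versions and settings are not given in the labels. The authors also deposited a DESeq2 table with a log2 fold change, its standard error and a p-value for each of 3 comparisons, per the file headers. Per the labels' protocols, each library came from about 100 cells amplified with a SMARTer Ultra Low kit and read as single 50-base reads. No molecular identifiers are described, so counts can include amplification copies.

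The 3 libraries of a replicate, called technical in the labels, were summed, which left 16 samples. No column of other samples was used. HTSeq's 5 summary lines stayed out of sizes and tests; of all reads in the files, 37.5 to 46.1% were alignments to several places, 5.92 to 19.4% lay outside genes and 1.92 to 2.58% were ambiguous. Symbols and coordinates came from GENCODE M21 (47224 identifiers matched, 419 did not), promoters from RefSeq (GRCm38.p6).

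Counts were fitted with edgeR 4.0.16 (R 4.3.3): TMM, filterByExpr (19048 genes kept of 32439 with a count), 1 mean per group over all 16 samples, two-sided quasi-likelihood tests, Benjamini-Hochberg adjustment over all genes and a threshold of 0.05. Log2 differences are crush minus uninjured or Tsc2 cKO minus control, and the interaction is the crush effect in Tsc2 cKO minus that in control. The fit was tested on simulated data. Alternatives were DESeq2 1.42.0, its size factors, limma-voom (limma 3.58.1), no filter, sex or glial markers as a covariate, a replicate block, 2 groups alone and leaving out each sample. Log2 CPM for profiles used a prior count of 2.

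Named genes were all members, Tsc2, up to 4 called genes of each list with the smallest p per comparison, of which some are given here, or up to 2 abundant ones where none was called. Members and lists were chosen with earlier results of these data known. The labels call the 4 replicates of a group biological and name no animal or litter, so p-values measure the spread between these samples. Protein and phosphorylation were not measured.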

Additional observations from a re-analysis of the deposited data

Results flagged for a closer look

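Of 40 groups of 4 replicates (10 members in 4 groups), 2 held a replicate that stood apart from the other three by more than Dixon's 95% criterion allows for a gap within a group's range, and chance flags about 1 group in 20, or 2 of 40. Map3k13, the gene of LZK, had 8.48 CPM in crush control replicate 2, against 3.12 to 3.74 CPM in the other three. Mapk8ip1, the gene of JIP1, had 24.0 CPM in uninjured control replicate 1, against 30.2 to 30.8 CPM in the other three.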

How the results depend on the processing

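Every alternative kept the direction of every call, and with crush in control neurons all 3 calls (Mapk8ip1, Map2k4 and Mapk10) held in all 16, as did Mapk10 with deletion in both states. With crush in Tsc2 cKO neurons the count of 1 member became 0 with DESeq2 size factors (Mapk10 -0.41, adjusted p = 0.0515), no filter (0.0777), the glial covariate (0.183) and the 2 groups alone (0.0770), and 0 to 1 without 1 replicate. With deletion after crush the count of 2 became 1 with no filter, the glial covariate and the 2 groups alone, and 1 to 2 without 1 replicate. With deletion in uninjured neurons it was 1 to 3 without 1 replicate. Over all genes DESeq2 called 1646 with crush in Tsc2 cKO neurons (1034 in the edgeR fit), 2042 with deletion after crush (1256) and 743 in the interaction (335). The glial covariate left 445 with crush in Tsc2 cKO neurons and 823 with deletion after crush. Without 1 replicate the counts were 618 to 885 with crush in Tsc2 cKO neurons and 202 to 485 in the interaction. The cause was not tested. Scaling by DESeq2 moved the median of all genes by at most 0.02.

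With the replicate number as a replicate block, 4 members passed with crush in control neurons (Mapk8ip3 added, 0.42, adjusted p = 0.0350), 1 with crush in Tsc2 cKO neurons, 4 with deletion in uninjured neurons (Mycbp2 added, -0.21, adjusted p = 0.0393), 2 with deletion after crush and 0 in the interaction. Deviations of same-numbered samples of the 2 sides correlated at 0.041 to 0.109 in controls and 0.0633 to 0.152 in Tsc2 cKO, each sample best with its own number, a hint from the data and not the design. Crush Tsc2 cKO and crush control samples, which differ in genotype and so come from different mice, also matched best by number in 4 of 4 (0.0256 to 0.0636). Depth limits Map3k13 (82 counts at the lowest) and Map3k12 (268) most.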

Other observations

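Of the 79 tested genes within 1 Mb of Tsc2 on chromosome 17, 17 passed with deletion in uninjured neurons (9 higher and 8 lower), a share of 21.5% against 20.7% of all genes tested. Atp6v0c, a subunit of the vacuolar proton pump, had 4.96 ± 1.10 CPM in crush Tsc2 cKO and 4.16 ± 0.616 CPM in uninjured Tsc2 cKO neurons, against 24.2 ± 2.86 CPM in crush control and 24.9 ± 1.82 CPM in uninjured control neurons (SD, n = 4 each), a log2 difference with deletion of -2.29 ± 0.18 after crush and -2.58 ± 0.18 in uninjured neurons (edgeR, adjusted p = 3.30e-06 and 9.45e-08). Mapk8ip3, the member in that window, passed in neither deletion comparison.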
